A study of Mus musculus with 2 samples.

Results

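The genes described here are the granzymes *Gzma*, *Gzmb*, *Gzmc*, *Gzmd*, *Gzme*, *Gzmf*, *Gzmg*, *Gzmk* and *Gzmm* and the perforin gene *Prf1*, 10 of the 31053 genes in the files. They were selected on their levels in these same cells, the CPM and shares of positive cells given below, so the differences between the libraries are a description and carry no test. Granzymes are serine proteases that cytotoxic lymphocytes store in secretory granules. Perforin, released with them, forms pores through which granzymes reach the cytosol of the target cell, where granzyme B cleaves caspases and other proteins of the death program. CD8 T cells and NK cells are the main carriers of this machinery in tumors. Mice hold a larger set of granzyme genes than humans do. Among them are *Gzmc*, *Gzmd*, *Gzme*, *Gzmf* and *Gzmg*, which lie close together on the same chromosome.

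Tumor-infiltrating immune cells (TIIs) came from B16-OVA tumors, a mouse melanoma line that carries ovalbumin as a model antigen, grown in C57BL/6J (B6) mice. The control mice were given PBS, and the creatine-treated mice received intraperitoneal creatine at 10.5 mg per injection. For each group, 4 tumors taken on day 14 were pooled and live CD45.2+ cells were sorted. From these, 10000 cells were loaded for droplet single-cell RNA sequencing, which gave 1 library per group. The day and the number of tumors follow the paper's sequencing methods. Elsewhere the paper gives an earlier harvest day for this profiling and more mice per group. The protocol entry of the control library also names the creatine injection, so it was taken as control by its title and treatment entry, and every ratio rests on that assignment. Because mice were pooled, nothing measures the spread between animals. The intervals given are exact 95% intervals that cover counting error only.

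After cells with over 25% mitochondrial unique molecular identifiers (UMIs) had been left out, 7241 control and 6229 creatine cells remained, and their median depth was 7688 and 8475 UMIs. A UMI marks 1 captured mRNA molecule, read near its 3′ end, and levels are given as UMIs per 1000000 UMIs of the same cells (CPM). Cells were gated on marker UMIs. The CD8 T gate held 2499 control and 2019 creatine cells, of which 1106 and 868 were called dividing because they had a UMI of at least 3 of 10 cell cycle genes. That cut is a point on a range, since 450 control and 309 creatine CD8 T cells had 2 or 3 of these genes. The NK gate held 570 and 993 cells, the conventional CD4 T gate 139 and 149, and the regulatory T (Treg) gate 323 and 196. The gates left 2685 and 1870 cells in no gate. The labels of the gates were checked on genes that the gates did not use. *Trac*, the constant chain of the T cell receptor, was found in 97.0% and 97.9% of CD8 T cells but in 9.30% and 11.5% of NK cells and 12.2% and 8.97% of macrophages. On the CPM scale it had 21.3 and 20.3 in NK cells against 9.20 and 6.82 in macrophages. *Trbc2*, the constant chain that pairs with it, was found in 47.0% and 49.2% of NK cells, at 269 and 300 CPM against 1365 and 1412 CPM in CD8 T cells. *Klre1*, an NK receptor, was found in 87.5% and 93.1% of NK cells, although 59.7% and 44.5% of CD8 T cells had it too, and *Ctla4*, a Treg checkpoint receptor, in 85.1% and 82.7% of Treg cells. Of the other NK genes checked, *Tyrobp* was found in 99.5% and 99.8% of NK cells and *Eomes* in 54.4% and 65.1%. Whether the NK gate also held other innate lymphocytes was not tested. *Klra4*, which also served to split NK cells by maturation, was found in 48.6% and 52.3%. Among conventional CD4 T cells the helper ligand *Cd40lg* was found in 21.6% and 35.6%. Genes checked for Treg cells were found there too, *Tnfrsf4* in 44.6% and 46.3%, *Tnfrsf18* in 56.8% and 69.8% and *Ctla4* in 15.1% and 21.5%. The libraries shared 30 cell barcodes before the filter and 29 after it, and without them no member's ratio in CD8 T, NK, CD4 T or Treg cells changed its sign.

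All 10 genes were located in the reference annotation (GENCODE M21, GRCm38). *Gzmb*, *Gzmc*, *Gzmd*, *Gzme*, *Gzmf* and *Gzmg* are transcribed from the minus strand of chromosome 14, within 145 kb between chr14:56117626-56120625 (*Gzme*) and chr14:56258838-56262260 (*Gzmb*). *Gzmc* lies at chr14:56231441-56234656, *Gzmf* at chr14:56205263-56211417, *Gzmg* at chr14:56156582-56159579 and *Gzmd* at chr14:56129556-56132608. *Gzma* (chr13:113093825-113100981) and *Gzmk* (chr13:113171608-113225908) lie together on chromosome 13. *Prf1* (chr10:61297833-61304680) and *Gzmm* (chr10:79689020-79695261) are on chromosome 10.

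The genes from *Gzmc* to *Gzmg* were lower together in creatine CD8 T cells, so the 150 bases before their transcription starts (RefSeq, GRCm38.p6, each read on the gene's own strand) are shown with those of their neighbor *Gzmb*. Capitals mark matches to TGTGGT, the core bound by Runx factors, to TGANTCA, the AP-1 site, and to TGACGTCA, the cyclic AMP response element (CRE). The CRE was added to the search after the sequences had been seen.
Gzmc (chr14:56234658-56234807, minus strand): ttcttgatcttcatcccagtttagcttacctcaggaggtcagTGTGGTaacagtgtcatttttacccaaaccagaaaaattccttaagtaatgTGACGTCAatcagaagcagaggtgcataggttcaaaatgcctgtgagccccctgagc
Gzmd (chr14:56132594-56132743, minus strand): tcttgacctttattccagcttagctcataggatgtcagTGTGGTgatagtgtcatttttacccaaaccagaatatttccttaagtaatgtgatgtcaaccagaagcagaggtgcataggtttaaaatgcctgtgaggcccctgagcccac
Gzme (chr14:56120626-56120775, minus strand): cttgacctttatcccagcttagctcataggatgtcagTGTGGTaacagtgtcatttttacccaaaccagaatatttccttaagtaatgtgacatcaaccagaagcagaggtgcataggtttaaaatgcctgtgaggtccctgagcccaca
Gzmf (chr14:56211408-56211557, minus strand): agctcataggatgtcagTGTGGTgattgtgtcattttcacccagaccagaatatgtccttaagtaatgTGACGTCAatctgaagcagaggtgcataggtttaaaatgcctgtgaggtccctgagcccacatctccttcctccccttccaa
Gzmg (chr14:56159580-56159729, minus strand): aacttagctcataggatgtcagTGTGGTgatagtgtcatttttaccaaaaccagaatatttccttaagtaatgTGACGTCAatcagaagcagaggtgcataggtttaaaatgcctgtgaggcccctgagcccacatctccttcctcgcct
Gzmb (chr14:56262335-56262484, minus strand): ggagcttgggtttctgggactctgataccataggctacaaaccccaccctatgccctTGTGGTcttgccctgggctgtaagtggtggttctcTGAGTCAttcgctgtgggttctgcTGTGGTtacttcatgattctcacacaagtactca

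The 5 windows from *Gzmc* to *Gzmg* were near copies of each other. Aligned in pairs, they were identical at 88.0% (*Gzmc* and *Gzmf*) to 97.0% (*Gzmd* and *Gzmg*) of bases, against 51.8% to 57.6% for each of them with *Gzmb*. Each held 1 TGTGGT on the sense strand, a motif that 8.40% of the 32851 promoter windows of the same length held on either strand. *Gzmc*, *Gzmf* and *Gzmg* also held TGACGTCA, found in 1.36% of windows. A run of 20 bases, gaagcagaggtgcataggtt, was shared by all 5 and by no other promoter window. The *Gzmb* window held 2 TGTGGT matches and the AP-1 match, found in 4.24% of windows. The windows of *Gzma* and *Prf1* each held a TGTGGT match and a match to AGGTGT, the core bound by T-box factors (6.86% of windows), and those of *Gzmk* and *Gzmm* held no match to any of these letters or to the TATA box TATAAA. A match of letters is not a measured site.

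The transcripts of these paralogs are also alike, which bears on how their reads could be told apart. Over the last 500 bases of the transcript, where the reads fall, 20.6% of the 50-base windows of *Gzmd*, 18.2% of those of *Gzme*, 14.4% of those of *Gzmg* and 7.10% of those of *Gzmf* also occur in another gene of the cluster. For *Gzmc* and the other 5 members no such window was shared. Levels of *Gzmd*, *Gzme*, *Gzmf* and *Gzmg* are therefore uncertain one by one, and their sum with *Gzmc* is given beside them. *Gzmn*, a further gene of the cluster that lies between *Gzmg* and *Gzmf*, shares windows with some of them. It had 1 UMI in control CD8 T cells and 0 in creatine CD8 T cells.

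In CD8 T cells, the genes from *Gzmc* to *Gzmg* were lower in the creatine library and *Gzma* was higher, whereas *Gzmb*, *Prf1*, *Gzmk* and *Gzmm* differed by less than 1.5-fold. *Gzmf* had 926 CPM (916 to 937) in control and 180 CPM (176 to 185) in creatine cells, 5.14-fold lower. *Gzmc* had 428 and 78.0 CPM, 5.49-fold lower. *Gzmd* had 193 and 41.4 CPM, and *Gzme* 156 and 32.1 CPM, which were 4.66-fold and 4.86-fold lower. The log2 ratios of these 4 genes lay between -2.46 and -2.22. Without the 10 cells with the most UMIs of each gene they lay between -2.90 (*Gzmc*) and -2.49 (*Gzmf*), with *Gzmd* at -2.89. These proteases are known from activated cytotoxic lymphocytes, and their substrates are less well defined than those of granzyme B. *Gzmg* had 1419 UMIs in control and 4 in creatine cells (42.3 and 0.128 CPM), but 1 control cell held 823 of them. Together the 5 genes had 1746 CPM (1732 to 1760) in control and 332 CPM (326 to 338) in creatine CD8 T cells, a log2 ratio of -2.40 (-2.43 to -2.36). The ratio of the sum was -2.48 without the 10 cells of each library that held most of these UMIs, so it was as large without them.

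Of the 10 members, 5 were lower by at least 1.5-fold in CD8 T cells and 1 was higher. Among all 11448 genes with at least 50 UMIs in these cells, 4.51% were lower and 4.16% higher by that measure. The median log2 ratio of the members was -1.26 and that of all genes 0.04. Since these ratios were known when the list was made, the counts are read no further. The plots of levels and of ratios show these values gate by gate.

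Markers of other cell types also differed between the libraries in the CD8 T gate. The macrophage genes *Apoe* (60.5 and 27.9 CPM) and *C1qc* (26.0 and 9.95 CPM) and the immunoglobulin gene *Igkc* (31.0 and 16.2 CPM) were lower in the creatine library. All 4 melanoma genes on the list were higher, *Dct* with 302 and 1202 UMIs, *Tyrp1* with 6.26 and 21.2 CPM, *Pmel* with 3.49 and 21.3 CPM and *Mlana* with 0.626 and 1.85 CPM, although *Dct* was found in 9.44% of control and 6.49% of creatine cells. In non-dividing cells *Dct* had 12.6 and 105 CPM and in dividing cells 7.27 and 3.66 CPM, while the genes from *Gzmc* to *Gzmg* were lower in both. In NK cells *Apoe* had 144 and 38.1 CPM. The part of such RNA in the granzyme values was not tested beyond the subtraction of the macrophage level.

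**Figure D1:**
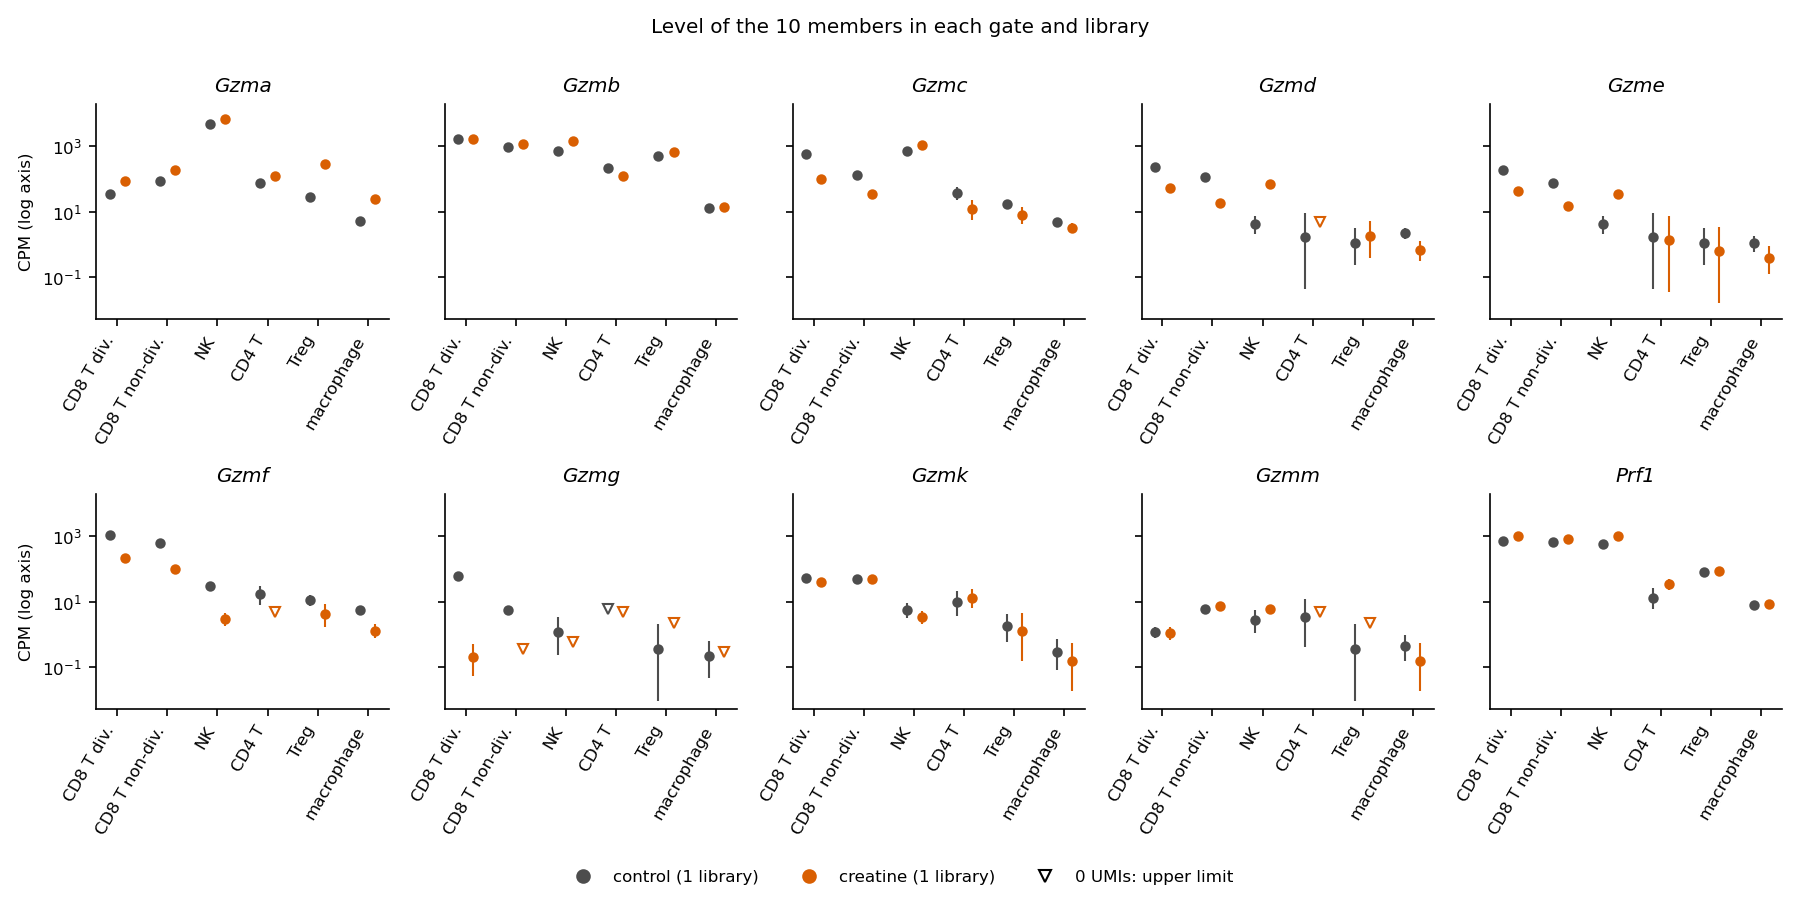
CPM (log axis) of each member in dividing and non-dividing CD8 T cells, NK cells, conventional CD4 T cells, Treg cells and macrophages, in the control (grey) and creatine (orange) library. Points are 1 library each, bars are exact 95% Poisson intervals and open triangles are upper limits where no UMI was found. The genes from *Gzmc* to *Gzmg* sat lower in creatine CD8 T cells, while *Gzmb*, *Gzmc* and *Prf1* sat higher in creatine NK cells. The NK values of *Gzmc* rest on few cells, with 50% of its UMIs in 4 control and 7 creatine cells.

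**Figure D2:**
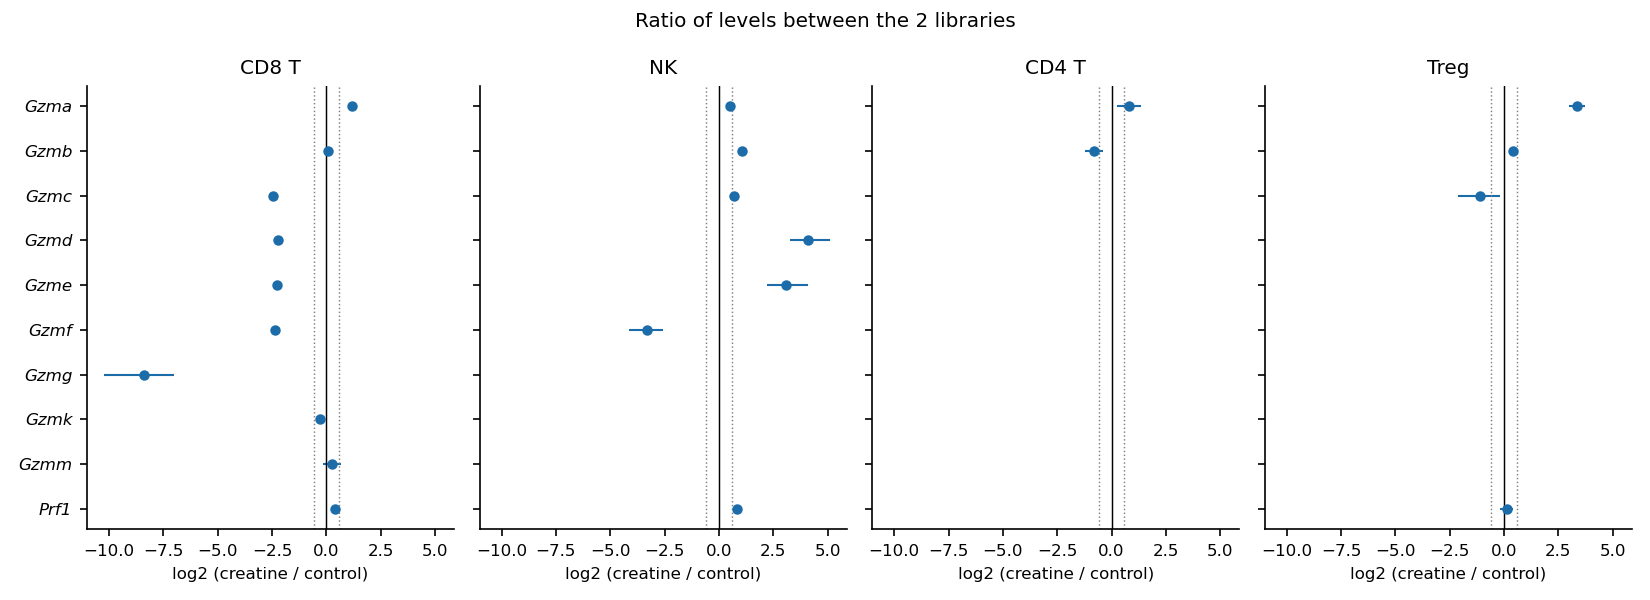
Log2 ratio of creatine over control CPM for members with at least 50 UMIs over both libraries, in CD8 T, NK, CD4 T and Treg cells. Points are ratios of 2 libraries, bars are exact 95% counting intervals, the solid line is no difference and the dotted lines mark a 1.5-fold difference. In CD8 T cells *Gzmc*, *Gzmd*, *Gzme* and *Gzmf* lie between -2.46 and -2.22, and in NK cells the same genes spread from -3.33 to 4.10.

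The lower level in the creatine library was found in dividing and in non-dividing CD8 T cells. In dividing cells the sum of *Gzmc* to *Gzmg* was 2120 CPM in control and 419 CPM in creatine (log2 ratio -2.34, -2.37 to -2.31), and in non-dividing cells it was 964 and 166 CPM (-2.54, -2.61 to -2.46). Under the other settings the ratio in non-dividing cells lay between -3.36, without the 10 highest cells of each library, and -2.10, without the 5% of cells with the most UMIs. In dividing cells 5 of 9 members with enough UMIs were lower and 1 higher (4.34% and 3.78% of all genes), and in non-dividing cells 5 of 10 were lower and 1 higher (3.75% and 3.82%). Within each library the level was higher in dividing cells, with a log2 ratio of dividing over non-dividing cells of 1.14 in control and 1.33 in creatine. *Gzmb* had a smaller such ratio of 0.82 and 0.53, and that of *Prf1* was 0.17 and 0.26. *Gzma* and *Gzmm* went the other way and were lower in dividing cells, *Gzma* with log2 ratios of -1.32 and -1.13 and *Gzmm* with -2.34 and -2.74. Dividing cells were also deeper, with a median of 18126 and 21779 UMIs against 7359 and 8713 in non-dividing cells, which CPM scales for but shares of positive cells do not.

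Non-dividing CD8 T cells were split further by state genes. In those with a UMI of at least 2 of the 6 checkpoint genes *Pdcd1*, *Havcr2*, *Lag3*, *Tigit*, *Entpd1* and *Tox*, the sum of *Gzmc* to *Gzmg* was 1152 CPM in control and 211 CPM in creatine. In cells with fewer of these and at least 2 naive or memory genes it was 26.5 and 14.1 CPM, from 35 and 27 UMIs, against 13.8 and 5.49 CPM in macrophages. *Gzmb* and *Prf1* followed the same split, with 1082 and 1434 CPM of *Gzmb* in checkpoint cells and 132 and 173 CPM in naive or memory cells. *Gzma* ran the other way in both libraries. In control it had 44.7 CPM in checkpoint and 282 CPM in naive or memory cells, and in creatine these were 149 and 254 CPM.

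The share of CD8 T cells with any UMI of *Gzmc* to *Gzmg* was lower in the creatine library as well. After each cell was thinned to 2000 UMIs, which left out 47 control and 17 creatine cells with fewer, the share was 21.5% (19.9% to 23.2%) in control and 9.54% (8.29% to 10.9%) in creatine cells. Without thinning it was 39.3% and 22.0%. Macrophages, which should lack these transcripts, gave a background of 4.43% and 1.98% after thinning and 17.6% and 7.22% without it. The macrophage gate left out cells with a UMI of *Cd3d*, *Cd3e*, *Cd3g* or *Ncr1*, so this background may be too low. Their median depth was 10853 and 9972 UMIs against 10070 and 12186 in CD8 T cells. Whether this background was free RNA or came from cells captured together was not tested. Subtracting the macrophage level of each library left the sign of every CD8 T ratio of these genes that could be computed as it was. *Gzmf* was found in 14.9% of thinned control and 6.44% of thinned creatine CD8 T cells, and *Gzmc* in 12.3% and 4.60%. *Gzmg* was found in 18 of 2452 thinned control cells and in 0 of 2002 thinned creatine cells, which allows a share of up to 0.150% of cells with a UMI at this depth. Without thinning, 2 creatine cells had 4 UMIs of it.

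The UMIs of these genes came from few cells. In the control library 37 of 2499 CD8 T cells held 50% of all *Gzmf* UMIs, and in the creatine library 20 of 2019 did. For *Gzmc* these were 32 and 13 cells, and for *Gzma* 21 and 18. *Gzmb* was spread more widely, with 50% of its UMIs in 142 and 166 cells, as were *Prf1*, with 218 and 231 cells, and *Gzmk*, with 169 and 150 cells at a median of 1 and 2 UMIs per positive cell. The highest control cell held 4376 UMIs of *Gzmc* to *Gzmg*, 7.47% of their sum, and the highest creatine cell 571, or 5.50%.

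**Figure D3:**
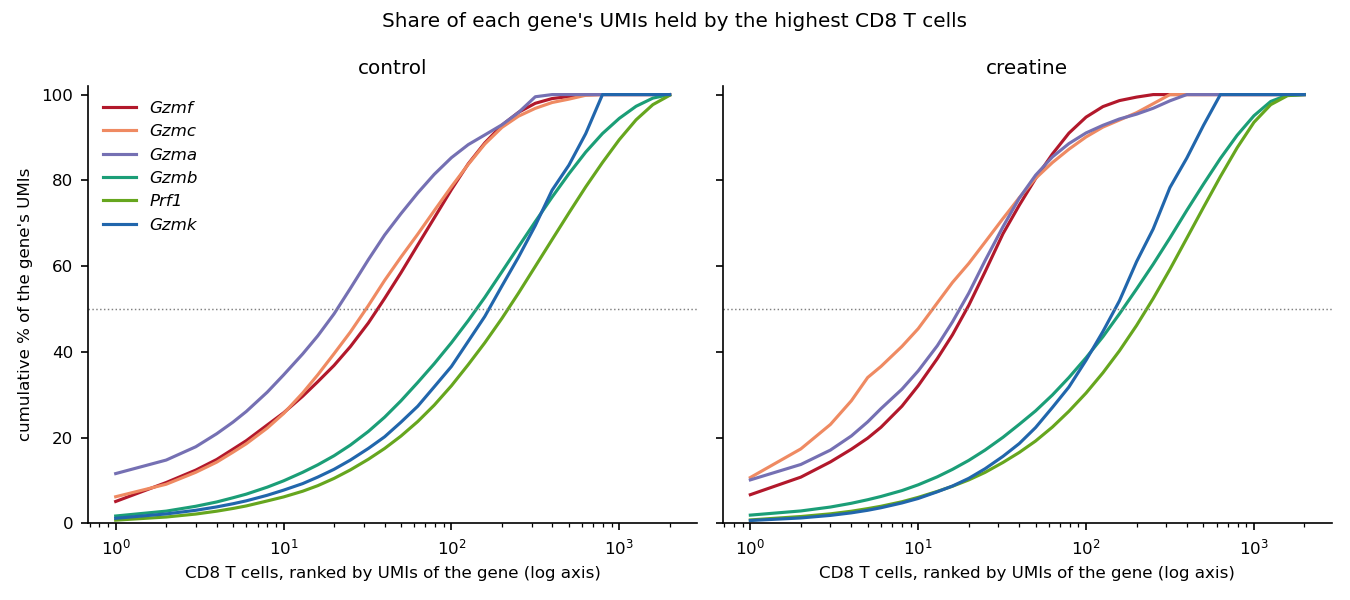
Cumulative share (%) of the UMIs of 6 members against the number of CD8 T cells, ranked from the cell with the most UMIs of that gene (log axis), in the control (left) and creatine (right) library. The dotted line marks 50%. *Gzmf*, *Gzmc* and *Gzma* reach it within 37 cells in either library, and *Gzmb*, *Gzmk* and *Prf1* need 142 cells or more.

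The genes from *Gzmc* to *Gzmg* tended to occur in the same CD8 T cells, although most cells with any of them had a UMI of only 1. Of control CD8 T cells, 534 had a UMI of 1 of the 5 genes, 223 of 2, 63 of 3, 116 of 4 and 45 of all 5. In the creatine library the numbers were 292, 84, 25, 42 and 2. In either library more cells thus had 4 of the genes than had 3. After thinning to 2000 UMIs this held in control, where 44 cells had 3 and 60 had 4. It did not hold in creatine, where 15 had 3 and 9 had 4. Cells with at least 3 made up 224 of 2499 control cells (8.96%, 7.87% to 10.2%) and 69 of 2019 creatine cells (3.42%, 2.67% to 4.31%). With cells thinned to 2000 UMIs the shares were 4.77% and 1.20%, and with 2 UMIs required of each gene 7.32% and 2.58%. In dividing cells they were 15.5% and 6.91%, and in non-dividing cells 3.80% and 0.782%. Among NK cells, 2 of 570 control and 6 of 993 creatine cells had at least 3 of the genes.

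**Figure D4:**
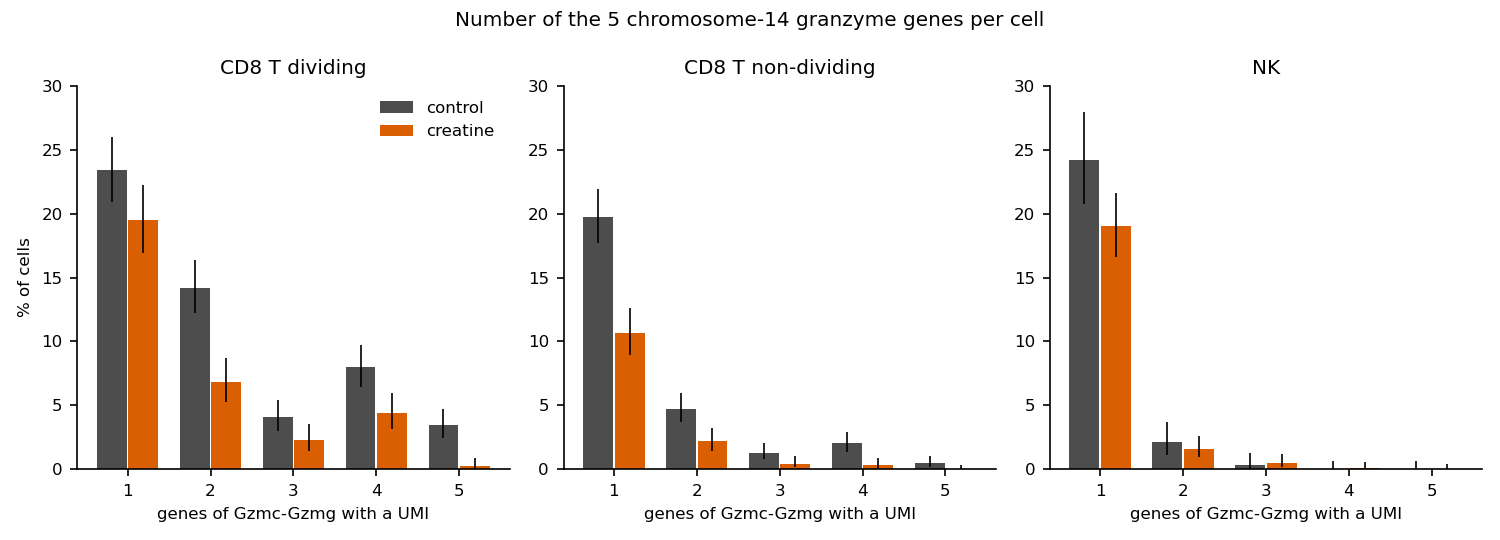
Share (%) of dividing CD8 T cells, non-dividing CD8 T cells and NK cells in which 1, 2, 3, 4 or 5 of the genes *Gzmc*, *Gzmd*, *Gzme*, *Gzmf* and *Gzmg* had a UMI, in the control (grey) and creatine (orange) library. Bars are 1 library each with exact 95% Clopper-Pearson intervals. Every bar of the CD8 T panels is higher in the control library, and 4 genes are more frequent than 3 in both CD8 T panels of the control library.

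Pairs were compared in thinned cells. Among control CD8 T cells with a UMI of *Gzmd*, 78.3% (69.9% to 85.3%) also had *Gzme*, against 2.06% of cells without *Gzmd*. In creatine cells this was 57.1% (39.4% to 73.7%) against 0.610%. *Gzmf* was found in 80.0% and 71.4% of cells with *Gzmd*, against 11.6% and 5.29% of cells without it. *Gzmc* with *Gzmf* was looser. *Gzmf* was found in 56.3% and 45.7% of cells with *Gzmc*, against 9.12% and 4.55% of the others. *Gzmd* shares windows with *Gzme* and with *Gzmf*, and what this does to the counts of these pairs was not tested. The number of these genes found per cell carries the same limit. *Gzmc* shares no such window with any gene. Over cells, the correlation of log2 levels of *Gzmd* and *Gzme* was 0.90 and 0.89, and that of *Gzmc* and *Gzmf* 0.70 and 0.49 (2499 and 2019 CD8 T cells, which share a library and differ in depth).

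Cells with these genes had *Gzmb* and *Prf1* too, but *Gzma* and *Gzmk* no more often than other cells. In thinned cells with *Gzmf*, *Gzmb* was found in 82.5% in control and 88.4% in creatine, against 49.8% and 59.4% of cells without *Gzmf*. *Prf1* was found in 76.8% and 82.9%, against 46.8% and 56.2%. *Gzma* was found in 4.10% and 3.10% of cells with *Gzmf* and in 5.61% and 7.26% of those without, and *Gzmk* in 7.65% and 4.65% against 10.2% and 8.70%. *Gzma* and *Gzmk*, neighbors on chromosome 13, did share cells. *Gzmk* was found in 23.5% (16.5% to 31.6%) of control cells with *Gzma* and in 9.01% of those without, and in creatine cells in 12.9% (7.80% to 19.6%) and 8.11%, where the interval of the former holds the latter.

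**Figure D5:**
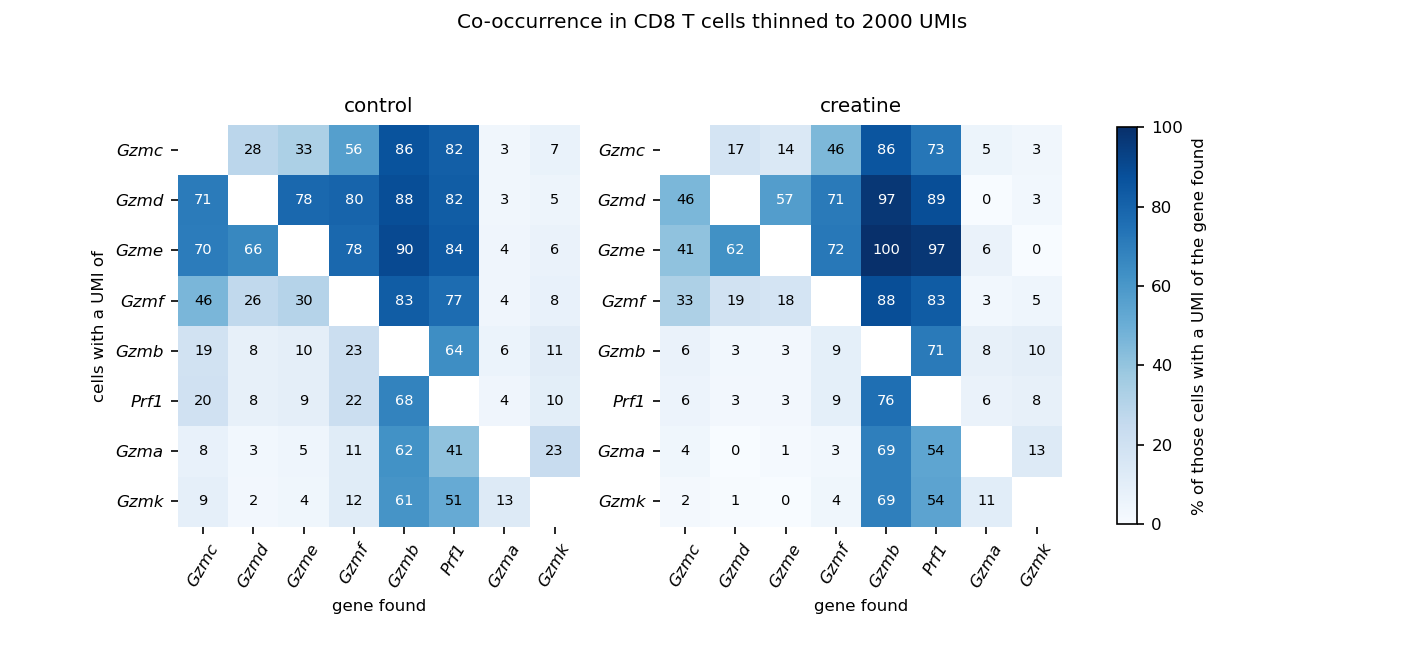
Share (%) of CD8 T cells with a UMI of the row gene in which a UMI of the column gene was also found, after thinning to 2000 UMIs per cell, in the control (left) and creatine (right) library. *Gzmd* and *Gzme* rows are dark against *Gzmf*, *Gzmb* and *Prf1*, and the *Gzma* and *Gzmk* columns are pale in the rows from *Gzmc* to *Gzmf*.

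The CD8 T cells with at least 3 of the 5 genes were deep and mostly dividing, which bears on every count of genes found per cell. Their median depth was 20998 UMIs in control and 29547 in creatine, against 8245 and 10916 in cells with none, and 76.3% and 87.0% of them were dividing, against 34.2% and 36.8%. On the CPM scale they held 3846 and 2901 of *Gzmb*, against 639 and 1095 in cells with none, and 1508 and 1656 of *Prf1*, against 422 and 810. *Gzmk* was 29.9 and 9.12 CPM in them and 63.6 and 52.4 CPM in cells with none. *Gzma* was 65.5 CPM (58.8 to 72.8) in control and 215 CPM (195 to 235) in creatine, against 62.2 and 130 CPM in cells with none, while the share of cells with a UMI was 8.48% and 17.4%, against 13.3% and 18.4%. The sum of *Gzmc* to *Gzmg* within them was 9503 CPM in control and 3292 CPM in creatine, but these cells were chosen on UMIs of the same genes, so the values are not an independent comparison. Among their T cell receptor genes, *Trav7-3* was found in 18.8% (13.9% to 24.5%) of the 224 control cells and 4.35% of control cells with none of the genes, and *Trav16* in 18.8% (10.4% to 30.1%) of the 69 creatine cells and 4.51% of creatine cells with none. The libraries differed in these genes beyond such cells, since among cells with none *Trav7-3* was found in 66 control and 0 creatine cells and *Trav16* in 9 control and 71 creatine cells. *Trav7d-3*, a gene of like name, went the other way from *Trav7-3*, with 2 control and 142 creatine cells. Whether reads of *Trav7-3* and *Trav7d-3* could be told apart was not tested.

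By their pattern over CD8 T cells, the genes most like the sum of *Gzmc* to *Gzmg* among 9044 genes were *AA467197* (Pearson r 0.46 in control and 0.35 in creatine), *Serpinb6b* (0.39 and 0.32), *Capg* (0.30 and 0.30), *Nrgn* (0.29 and 0.30) and *Serpinb9* (0.36 and 0.26). *Serpinb9* and *Serpinb6b* are serine protease inhibitors of the family that protects cytotoxic cells from granzymes. *Capg* caps actin filaments and *Nrgn* binds calmodulin. Between the libraries, *AA467197* had 158 and 94.4 CPM, *Serpinb6b* 214 and 156 CPM and *Nrgn* 295 and 308 CPM. Those most like *Gzmk* were *Ccl5*, the immunoglobulin gene *Igkc*, *Cd7*, *Cd2* and *H2-D1*, with r from 0.15 to 0.24. Those most like *Gzma* were *Tyrobp*, *Ccr2*, *Fcer1g*, *Itgax* and *Ifngr1*, with r from 0.16 to 0.32. *Tyrobp* and *Fcer1g*, adaptors of NK and myeloid receptors, had 32.4 and 25.4 CPM and 42.7 and 39.9 CPM in CD8 T cells. These correlations are over cells of 1 library each and are a description.

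*Gzmb* and *Prf1* were the members found in most CD8 T cells. *Gzmb* had 1432 CPM (1419 to 1445) in control and 1508 CPM (1494 to 1521) in creatine CD8 T cells, a log2 ratio of 0.07 (0.06 to 0.09). In dividing cells the ratio was 0.02 (-0.002 to 0.04), an interval that holds 0, and in non-dividing cells 0.30 (0.26 to 0.34). These ratios depended on the settings. The alternatives gave 0.03 to 0.28 in all CD8 T cells, and the highest came from counting every cell equally. They gave -0.02 to 0.16 in dividing and 0.04 to 0.66 in non-dividing cells. Cells with at least 10 UMIs of *Gzmb* made up 33.3% of control and 46.3% of creatine CD8 T cells. These shares are without thinning, and the creatine cells were deeper, with a median of 12186 UMIs against 10070 in control. *Gzmb* was found in 54.6% of thinned control and 61.2% of thinned creatine cells (76.7% and 81.2% unthinned), against 2.62% and 1.98% of macrophages. *Prf1* had 707 and 941 CPM, 1.33-fold higher in creatine, with a log2 ratio of 0.41 (0.39 to 0.44) that was 0.44 in dividing and 0.35 in non-dividing cells. It was found in 51.3% and 57.9% of thinned cells. Thinned cells with *Gzmb* had *Prf1* in 63.7% and 71.5% of cases, and those without it in 36.3% and 36.5%.

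*Gzma*, a tryptase that cleaves gasdermin B in human cells and is a main NK granzyme in mice, was low in CD8 T cells and higher in the creatine library. It had 52.9 CPM (50.5 to 55.4) and 119 CPM (115 to 123), a log2 ratio of 1.17 (1.09 to 1.25). Of the *Gzma* UMIs in these cells, 34.6% and 35.6% were in 10 cells of each library. The share of thinned cells with a UMI was 5.38% and 6.99%, whose intervals overlap. Of unthinned cells it was 13.0% and 18.3%, so the level differed by more than the share. Macrophages had 5.13 CPM of *Gzma* in the control and 24.0 CPM in the creatine library, which also held more NK cells and more *Gzma* UMIs in all (22548 and 64601). The few B cells, 23 and 32, had 27 and 51 UMIs of it, or 347 and 401 CPM. After the macrophage level was subtracted the log2 ratio in CD8 T cells was 0.99. How far free RNA and cells captured together with NK cells add to the CD8 T value was not tested further.

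*Gzmk*, a granzyme of memory and exhausted-precursor CD8 T cells, differed little. It had 52.7 CPM (50.3 to 55.2) in control and 43.0 CPM (40.7 to 45.3) in creatine CD8 T cells, a log2 ratio of -0.30 (-0.40 to -0.19) that was -0.46 in dividing cells and 0.02 (-0.16 to 0.20) in non-dividing cells. It was found in 9.79% and 8.44% of thinned cells, whose intervals overlap, and in 0 of 993 and 0 of 962 thinned macrophages, which allows shares of up to 0.302% and 0.312% of cells with a UMI at this depth. Unthinned, the macrophages held 4 and 2 UMIs of it. *Gzmm*, a granzyme of NK and innate T cells, had 89 and 99 UMIs in CD8 T cells (2.65 and 3.17 CPM), and its ratio of 0.26 (-0.17 to 0.68) holds 0. Its level was 20.4 and 29.7 CPM in non-dividing naive or memory cells and 2.78 and 1.32 CPM in checkpoint cells.

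In NK cells *Gzma*, *Gzmb* and *Prf1* were higher in the creatine library, the same direction as in CD8 T cells, and *Gzmf* was lower. The level of *Gzmc* was higher too, opposite to CD8 T cells, but this rests on few cells. Its log2 ratio of 0.68 was 0.03 without the 5% of cells with the most UMIs. *Gzma* had 4971 CPM (4886 to 5056) in control and 7030 CPM (6966 to 7094) in creatine NK cells, 1.41-fold higher. *Gzmb* had 714 and 1469 CPM, a log2 ratio of 1.04 (0.97 to 1.11), and *Prf1* 575 and 1021 CPM, a log2 ratio of 0.83 (0.75 to 0.91). Of 7 members with at least 50 UMIs, 5 were higher by at least 1.5-fold (3.98% of 8822 genes) and 1 was lower (3.89%). *Gzmc*, *Gzmd* and *Gzme* are among the 5 and rest on few cells, as given below. At a fold of 2, 3 were higher (0.669% of genes), and 1.5-fold lower were 2 members with at least 10 UMIs (8.73%) and 0 with at least 200 UMIs (1.1%). The median log2 ratio of these 7 was 0.83 and that of all genes 0.04. The shares of positive cells of 3 of these genes were higher as well. *Gzmb* was found in 47.7% of thinned control and 63.5% of thinned creatine NK cells, *Prf1* in 56.1% and 74.6%, and *Gzma* in 83.2% and 88.1%.

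NK cells with a UMI of at least 2 of 7 maturation genes made up 58.9% of control and 71.9% of creatine NK cells. *Gzmb* was higher in the creatine library among these mature cells, with 750 and 1602 CPM, and among the others, with 663 and 1164 CPM. *Prf1* had 650 and 1163 CPM in mature cells and 468 and 698 CPM in the others. *Gzma* differed in mature cells, with 6028 and 8541 CPM, but in the others it had 3487 and 3585 CPM, a log2 ratio of 0.04 (-0.02 to 0.10) whose interval holds 0.

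*Gzmc* was the member of the chromosome 14 group that cells of the NK gate carried. It had 704 CPM (672 to 736) in control and 1127 CPM (1101 to 1153) in creatine NK cells, but 50% of these UMIs were in 4 and 7 cells, and the share of thinned cells with a UMI was 12.6% and 11.8%. With equal weight for each cell the log2 ratio of 0.68 was 0.21, and without the 5% of cells with the most UMIs it was 0.03. It was higher in cells with few maturation genes (1438 and 2225 CPM) than in mature cells (180 and 645 CPM). *Gzmc* was found less often in NK cells with *Gzma* than in those without. In thinned cells with *Gzma*, *Gzmc* was found in 8.35% and 8.48%, and in those without *Gzma* in 33.7% and 36.2%. Since most NK cells had *Gzma*, 38 of the 69 control and 73 of the 115 creatine cells with *Gzmc* had *Gzma* too. Whether the cells with *Gzmc* in this gate were all NK cells was not tested. Of all *Gzmc* UMIs in a library, CD8 T cells held 69.4% in control and 17.6% in creatine, and NK cells 9.08% and 53.2%.

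The higher *Gzmd* and *Gzme* in creatine NK cells came from few cells. *Gzmd* had 11 UMIs in control and 464 in creatine NK cells, of which 366 were in 1 cell, and *Gzme* had 11 and 227, of which 126 were in 1 cell. Without the 5% of cells with the most UMIs, the log2 ratios of 4.10 and 3.07 turned to -2.86 and -2.01. *Gzmf* had 78 and 19 UMIs (29.2 and 2.90 CPM, against 5.69 and 1.26 CPM in macrophages), and its share of thinned cells was 3.47% and 0.921%, against 1.71% and 0.728% of macrophages. Of its 78 control UMIs, 2 cells held 50%. Without the 10 cells with the most of it in each library, the log2 ratio of -3.33 was -2.94. *Gzmk* and *Gzmm* had 15 and 22 UMIs and 7 and 38 UMIs, with ratios of -0.74 (-1.75 to 0.31) and 1.15 (-0.03 to 2.56) that hold 0. *Gzmg* had 3 UMIs in control and 0 in creatine NK cells.

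Treg cells carried *Gzmb* and some *Prf1*, and conventional CD4 T cells little of either. *Gzmb* had 512 CPM (486 to 540) in control and 681 CPM (642 to 722) in creatine Treg cells, and was found in 44.6% and 44.1% of thinned cells. With equal weight for each cell the log2 ratio of 0.41 was -0.04, and without the 10 cells with the most of it in each library it was 0.06. *Prf1* had 78.4 and 85.4 CPM in Treg cells, with a ratio of 0.12 (-0.19 to 0.43), and was found in 8.72% and 12.4% of thinned cells, against 2.01% and 1.56% of macrophages. In conventional CD4 T cells *Gzmb* had 130 and 95 UMIs (215 and 123 CPM) and was found in 14.8% and 14.0% of thinned cells, and its log2 ratio of -0.81 became 0.24 without the 10 cells with the most of it in each library.

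*Gzma* was higher in creatine cells of both types, but by few cells. In Treg cells it had 78 and 472 UMIs, of which 1 creatine cell held 376, and the log2 ratio of 3.35 was 0.68 without the 10 highest cells of each library. In conventional CD4 T cells it had 44 and 98 UMIs, of which 1 creatine cell held 75, and with equal weight for each cell the ratio of 0.80 was -0.08. The genes from *Gzmc* to *Gzmg* had 85 and 24 UMIs together in Treg cells and 34 and 10 in conventional CD4 T cells. The share of thinned cells with any of them was 6.04% and 4.84% in Treg cells and 9.02% and 2.10% in conventional CD4 T cells, and all 4 intervals overlap those of macrophages in the same library. On the CPM scale the sum was 30.3 and 14.4 in Treg cells and 56.1 and 12.9 in conventional CD4 T cells, against 13.8 and 5.49 in macrophages, and the interval of creatine CD4 T cells alone overlapped that of macrophages. Of the members with at least 50 UMIs, 1 of 2 in conventional CD4 T cells was higher and 1 lower (7.06% and 5.33% of all genes), and in Treg cells 1 of 4 was higher and 1, *Gzmc*, lower (6.43% and 5.15%). *Gzmk* and *Gzmm* had at most 10 UMIs in either gate.

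The members differed in the cell type in which they were highest, with dividing and non-dividing CD8 T, NK, conventional CD4 T and Treg cells compared and no finer split. *Gzma* was highest in NK cells, far above non-dividing CD8 T cells (88.8 and 185 CPM). *Gzmb* was highest in dividing CD8 T cells (1665 and 1687 CPM), with NK cells below non-dividing CD8 T cells in control and above them in creatine. *Prf1* was highest in dividing CD8 T cells in control (734 CPM), but in creatine the NK value of 1021 CPM and the dividing CD8 T value of 998 CPM had intervals that overlapped. *Gzmd*, *Gzme*, *Gzmf* and *Gzmg* were highest in dividing CD8 T cells, except that in creatine *Gzmd* was higher in NK cells, by 1 cell. *Gzmc* was highest in the NK gate, 704 and 1127 CPM, with 571 CPM in control and 101 CPM in creatine dividing CD8 T cells. That order rests on few cells in control, where 4 NK cells held 50% of the UMIs, and by thinned share it was 12.6% of NK and 19.0% of dividing CD8 T cells. *Gzmk* was highest in CD8 T cells, and its dividing and non-dividing values of 54.6 and 48.7 CPM in control had intervals that overlapped.

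Other genes of the cytotoxic pathway were taken from a list. It held granule partners, processing and release genes, inhibitors, death ligands and transcription factors. Of 27 with at least 50 UMIs in CD8 T cells, none was higher (4.16% of all genes) and 3 were lower (4.51%) by at least 1.5-fold in the creatine library, and their median log2 ratio was 0.06. The lowest ratios were those of *Serpinb9b*, an inhibitor, with 60.4 and 10.2 CPM (log2 ratio -2.57, -2.74 to -2.40), *Ctsl*, a lysosomal protease, with 10.9 and 5.47 CPM (-0.99), and *Serpinb6a*, an inhibitor, with 119 and 77.2 CPM (-0.62). The highest were those of *Lyst*, which acts in lysosome traffic, with 96.6 and 144 CPM (0.58), the transcription factor *Tbx21*, with 40.5 and 56.8 CPM (0.49), and the granule membrane protein *Nkg7*, with 1742 and 2224 CPM (0.35). The inhibitors *Serpinb9* and *Serpinb6b* had log2 ratios of -0.42 and -0.46 in CD8 T cells, short of a 1.5-fold difference. In NK cells *Serpinb9* was higher in creatine, with a log2 ratio of 0.28 (0.17 to 0.39). There *Serpinb9b* (0.16), *Serpinb6b* (0.11) and *Serpinb6a* (-0.34) had intervals that hold 0. *Ctsc*, which activates granzyme precursors, had 82.0 and 85.8 CPM, and serglycin (*Srgn*), which holds them in the granule, 721 and 716 CPM. In NK cells none of the 27 genes was higher (3.98% of all genes) and 2, *Cd63* and *Ctsl*, were lower (3.89%) by at least 1.5-fold. Of the 25 with at least 200 UMIs, 0 were lower by that measure. The highest ratios there were those of *Nkg7* (0.45), *Fasl* (0.45) and the protease inhibitor cystatin F gene *Cst7* (0.32), and the lowest those of *Cd63* (-1.14), *Ctsl* (-0.82) and *Rab27a* (-0.35), which docks granules. Cysteine protease *Ctsl* had 44 and 61 UMIs in these cells and *Cd63* 45 and 50. The macrophage genes *Apoe* (144 and 38.1 CPM) and *C1qc* (62.5 and 20.6 CPM) were lower in creatine NK cells too, as they were in CD8 T cells. The part of macrophage RNA in the *Ctsl* and *Cd63* values was not tested.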

How the data were processed

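The authors ran Cell Ranger (version 3.0.2 and build mm10 in the submitters' processing notes). For each of the 2 libraries they deposited UMI counts per gene and cell, which are whole numbers and not normalized. The aggregated matrix that they analysed was not used here. The members and gene lists were chosen with earlier results of these data known.

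Cells with at least 300 UMIs, 100 genes and at most 25% mitochondrial UMIs were kept, giving 79319769 control and 72091124 creatine UMIs. Gates were set on UMIs of marker genes. T cell gates needed at least 2 UMIs of *Cd3d*, *Cd3e* and *Cd3g* together. To this the CD8 T gate added at least 2 of *Cd8a* and *Cd8b1*, none of *Cd4* or *Foxp3*, and at most 1 of *Trdc*. The conventional CD4 T gate added at least 1 of *Cd4*, none of *Cd8a*, *Cd8b1* or *Foxp3*, and at most 1 of *Il2ra* and *Ikzf2*. The Treg gate added at least 1 of *Foxp3* and none of *Cd8a* and *Cd8b1*, with no limit on *Cd4*. The NK gate needed at least 2 UMIs of *Ncr1* and *Klrb1c* and none of *Cd3d*, *Cd3e*, *Cd8b1* and *Foxp3*. These gates allowed at most 1 UMI of *Csf1r*, *Cd79a*, *Ms4a1*, *Siglech* and *Csf3r*. No doublet caller was run; an alternative left out the 5% of cells with the most UMIs in each gate. Macrophages gave the background. Their gate needed UMIs of *Csf1r* and of *C1qa*, *C1qb* or *Lyz2*, and none of *Cd3d*, *Cd3e*, *Cd3g* and *Ncr1*. Macrophages with such T or NK cell RNA were thus not part of the background. The 23 control and 32 creatine B cells were too few for one.

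Counts were summed per gate and library. Ratios of CPM carry exact conditional binomial intervals, CPM exact Poisson intervals and shares Clopper-Pearson intervals, at 95%. With 1 library per group, no test was made. For shares, cells were thinned at random to 2000 UMIs. Named genes were the 10 members and the 3 highest and 3 lowest of the list of cytotoxic pathway genes in CD8 T and NK cells. Also named were the 5 most alike genes among those found in at least 5% of CD8 T cells (r of log2(CPM + 100) per cell). *Gzmn*, the inhibitors, *Ctsc*, *Srgn*, the T cell receptor genes and the marker genes are not covered by that rule, and were picked with their values in view. Alternatives were stricter gates, other cell filters, TMM scaling (edgeR 4.0.16, R 4.3.3), totals that leave out mitochondrial and ribosomal protein genes, cells weighted equally, other thinning depths and other folds or UMI minimums. Promoter windows are from RefSeq (GRCm38.p6), where all 10 members were found, and *Gzmm* had 2 starts. Python 3.11.15, numpy 2.4.6, pandas 2.3.3, scipy 1.17.1, Biopython 1.88 and matplotlib 3.10.9 were used. The ratio script was tested on simulated Poisson counts per gate, a setting that leaves out the clumping of UMIs in few cells.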

Additional observations from a re-analysis of the deposited data

Results flagged for a closer look

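For *Gzmb*, *Gzmc*, *Gzmd* and *Gzme* the creatine to control ratio was above 1 in some cell types and below 1 in others. The counting intervals on the log2 scale left out 0, but for each gene a ratio on 1 side depended on few cells or on the settings. These differences between cell types were not tested, since there was 1 library per group. How many of all genes meet the same rule is not given, so these members are listed and their number is not read as a result. *Gzmb* had a log2 ratio of 1.04 in NK cells, 0.410 in Treg cells, 0.0743 in CD8 T cells and -0.807 in conventional CD4 T cells. Its conventional CD4 T value became 0.24 without the 10 highest cells of each library, and its Treg value -0.04 with equal weight for each cell. *Gzmc* had 0.679 in NK cells but -2.46 in CD8 T, -1.64 in conventional CD4 T and -1.10 in Treg cells. Its NK value was 0.03 without the 5% of cells with the most UMIs. *Gzmd* had 4.10 in NK and -2.22 in CD8 T cells, and *Gzme* 3.07 and -2.28. The NK values of *Gzmd* and *Gzme* came mostly from 1 creatine cell each, which held 366 of 464 and 126 of 227 UMIs.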

How the results depend on the processing

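In CD8 T cells the log2 ratio of the sum of *Gzmc* to *Gzmg*, -2.40, was -2.43 with TMM scaling, -2.44 without mitochondrial and ribosomal protein genes in the total, and -2.48 without the 10 cells with the most UMIs of these genes. In NK cells the same sum, 0.73, was 0.81 when cells needed 500 genes and no more than 10% mitochondrial UMIs, 0.66 without mitochondrial and ribosomal protein genes, 0.19 with equal weight per cell, 1.18 without the 10 highest cells, 0.91 with equal weight of cells with and without maturation genes, and, reversed, -0.0565 without the 5% of cells with the most UMIs. Leaving out 10 cells or shared barcodes and the equal NK weights were chosen after seeing the data.

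The share of CD8 T cells with any of the 5 genes (21.5% control, 9.54% creatine) was 16.6% and 6.59% at 1000 UMIs and 39.3% and 22.0% without thinning. The share with at least 3 (8.96% and 3.42%) was 7.32% and 2.58% with 2 UMIs per gene and 4.77% and 1.20% after thinning. In NK cells the 5 members higher became 3 at a fold of 2, and the 1 lower became 2 with at least 10 UMIs and 0 with at least 200. Of 518 other ratios of members and sums under alternatives, 399 stayed inside the counting interval and 19 changed sign, 14 of them where the interval held 0. The 5 others were *Gzmd* (-2.86) and *Gzme* (-2.01) in NK cells without the 5% of cells with the most UMIs, *Gzma* in conventional CD4 T cells (-0.0844) and *Gzmb* in Treg cells (-0.0407) with equal weight per cell, and *Gzmb* in conventional CD4 T cells (0.24) without the 10 highest cells. The cause was not tested beyond the counts per cell given above. No paired analysis was possible because there was 1 library per group, and no library could be left out.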
